A study of Homo sapiens with 8 samples.

Results

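The CHD genes encode a family of ATP-driven chromatin remodellers, and the 9 human members, CHD1 to CHD9, were examined here for YTHDF2 sites in their genomic spans. Members were the distinct positions of the deposited YTHDF2 binding-site list that lay inside the genomic span of a CHD gene, on that gene's strand. There were 113 such positions among 37613 in all (0.300%). The list came from iCLIP2, a method that fixes a protein to its RNA with ultraviolet light, pulls the protein down with an antibody and reads the crosslinked base from where the cDNA breaks off. The established human cell line HEK293T, of embryonic kidney origin and labelled wild type, was used. Among 8 libraries, 4 followed a 12 h treatment with STM2457, a METTL3 inhibitor that depletes m6A, at 20 µM in 0.2% DMSO, and 4 followed 12 h in 0.2% DMSO alone. The study set out to find m6A-dependent binding of YTHDF2. The list holds 1 pooled set of sites with a score each and 0 columns for single libraries. STM2457 and DMSO were therefore not compared here, the spread between replicates is unknown, and so is the depth behind a site.

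YTHDF2 is a cytoplasmic reader of N6-methyladenosine (m6A) and brings mRNA decay factors to the transcripts it binds. CHD proteins carry paired chromodomains, which contact chromatin, and an SNF2-type ATPase motor that slides or evicts nucleosomes. They fall into 3 subfamilies by sequence. CHD1 and CHD2 act on transcribed chromatin. CHD3, CHD4 and CHD5 carry PHD fingers and serve as ATPases of the nucleosome remodelling and deacetylase complex NuRD. CHD6 to CHD9 are large proteins. Several members are dosage-sensitive disease genes: CHD7 is mutated in CHARGE syndrome, CHD8 in autism and CHD2 in childhood epilepsy.

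YTHDF2 sites were found in 8 of the 9 CHD genes, against a background of 39.1% over all 19993 protein-coding genes of the gene table. CHD8 held 29 sites, CHD7 28, CHD6 17, CHD9 16, CHD1 and CHD4 8 each, CHD2 6 and CHD3 1, while CHD5 held 0. The CHD6 to CHD9 subfamily thus carried 90 of the 113 sites (79.6%), and CHD7 and CHD8 together carried 57 (50.4%). CHD1 and CHD2 carried 14 sites, and CHD3 to CHD5 carried 9. Each of CHD6 to CHD9 had 10 or more sites, as did 4.97% of all protein-coding genes. The 5 genes of the other subfamilies did not reach 10. The median was 12 sites (quartiles 7.5 and 19.8) in the 8 bound CHD genes and 3 (quartiles 2 and 6) in the other bound protein-coding genes. These are counts in 1 pooled list, with no test between the family and other genes.

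**Figure D1:**
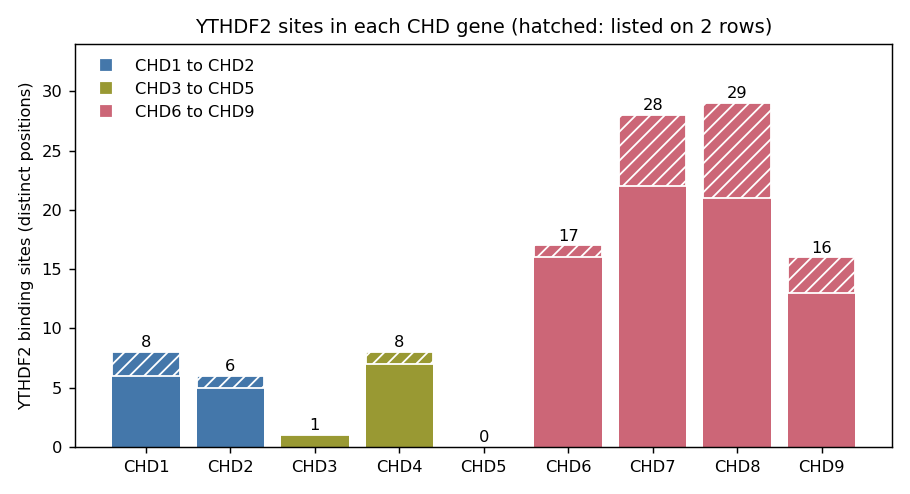
YTHDF2 binding sites (distinct positions, y axis) in each CHD gene (x axis), coloured by subfamily, with the hatched part showing positions that the list gives on 2 rows. CHD7 and CHD8 stand highest at 28 and 29 sites, CHD6 and CHD9 follow at 17 and 16, and CHD5 has 0.

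The order of CHD7 and CHD8 depended on how sites were counted. With positions at or above the list's median score alone, CHD7 had 17 and CHD8 15. With positions within 10 nt merged, CHD7 had 28 and CHD8 26, and with scores of 1 or more CHD7 had 28 and CHD8 27. The CHD6 to CHD9 subfamily held between 76.3% and 85.7% of the CHD sites under the 8 alternatives for which it was computed. Only 26 protein-coding genes had more sites than CHD8 and 32 more than CHD7, compared with 181 for CHD6 and 218 for CHD9. CHD1 and CHD4, at 8 sites, were exceeded by 1215 genes and CHD2 by 1895.

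CHD genes are long, and per kilobase of genomic span they ranged from the lower to the upper part of bound genes. The median span of the 8 bound CHD genes was 101 kb, against 32.0 kb in other bound genes. The median density was 0.0926 sites per kb of span in the CHD genes and 0.108 in other bound genes. CHD8, with 29 sites in a span of 70.9 kb, had 0.409 sites per kb, at the 81.5th percentile of bound genes. CHD4 had 0.214 per kb (67.4th percentile), CHD7 0.148 (58.0th) and CHD1 0.107 (49.7th). CHD6 and CHD9, which span 216 and 273 kb, had 0.0786 and 0.0587 per kb (41.5th and 34.3rd percentiles). CHD2 had 0.0470 per kb (29.0th percentile) and CHD3 0.0358 (22.5th). Most of a span is intron, and exon lengths and expression levels were not used here. The density therefore does not give sites per length of mRNA or per transcript.

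Many CHD sites lay in groups, at spacings close to those of other genes. Sites of a gene no more than 1000 nt apart were joined into clusters, a gap chosen after the positions were seen. The 113 CHD sites formed 33 clusters, and 11 of these held 5 or more sites and 75 sites (66.4%) between them. That share was not computed for other genes, which had fewer sites each (median 3 in other bound genes, 12 in bound CHD genes). The share of a gene's sites in such clusters was 94.1% in CHD6, 83.3% in CHD2, 75% in CHD1 and CHD7, 69.0% in CHD8 and 43.8% in CHD9, and 0% in CHD3 and CHD4. The median gap between successive sites was 144 nt in CHD genes and 152 nt in other genes.

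CHD8 encodes a remodeller that binds β-catenin and CTCF and is among the most often mutated genes in autism. Its 29 sites lay on chromosome 14, minus strand, from 21385273 to 21431804 (GRCh38), in 8 clusters, of which 3 held 20 sites. The most 5′ cluster held 7 sites within 943 nt, from 21430862 to 21431804. It contained the gene's highest score, 102.5 at 21431449. A middle cluster of 6 sites spanned 797 nt, from 21393166 to 21393962, and a cluster of 7 sites spanned 523 nt, from 21385273 to 21385795. That last group ended 74 nt from the 3′ end of the gene. Between the 5′ and middle groups, over 36.9 kb, the 9 remaining sites scored at most 9.12. Its 2 hosted small nucleolar RNA genes, SNORD8 and SNORD9, contained 0 sites.

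CHD7 encodes the remodeller mutated in CHARGE syndrome and works in neural crest and inner ear development. Its 28 sites lay on chromosome 8, plus strand, from 60741563 to 60865832, in 6 clusters. A 5′ group of 7 sites covered 1284 nt up to 60742846 with scores of at most 16.6. A group of 3 sites within 40 nt followed at 60781190 to 60781229. The next sites lay 71.7 kb downstream, where 8 sites fell within 492 nt, from 60852885 to 60853376, the most sites in any CHD cluster together with the CHD6 groups. The last group, 6 sites from 60865200 to 60865832, had the highest median score of the CHD7 groups (42.7) and the gene's top score, 63.1 at 60865793.

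CHD6, a remodeller linked to the oxidative stress response, had 16 of its 17 sites in 2 clusters on chromosome 20, minus strand. One held 8 sites from 41420868 to 41422006 and the other 8 sites from 41404650 to 41405328. A lone site between them, at 41415361, scored 0.0494. The gene spans 216 kb, yet its sites covered 17.4 kb, and 0 sites lay in the 196 kb at its 5′ end.

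CHD9, known from osteogenic cells as a coactivator, had 16 sites on chromosome 16, plus strand, from 53156109 to 53324773, in 5 clusters. Its largest cluster held 7 sites within 533 nt, from 53303776 to 53304308, with the gene's top score of 39.0 at 53303954. A group of 4 sites lay at 53324187 to 53324773, and 4 more sites lay at the 5′ side between 53156109 and 53157449. Each of CHD6 to CHD9 had a group of 6 to 8 sites 7.97 kb or more from the gene's 3′ end, a distance set after the positions were seen. The nearest such group began 7.97 kb from that end in CHD8, 14.7 kb in CHD7, 18.8 kb in CHD6 and 23.2 kb in CHD9. CHD8 and CHD7 each had a further group of 7 sites, 45.7 and 125 kb from that end. Whether other genes with as many sites have such groups was not examined. Whether these stretches fall in matching exons was not examined here.

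**Figure D2:**
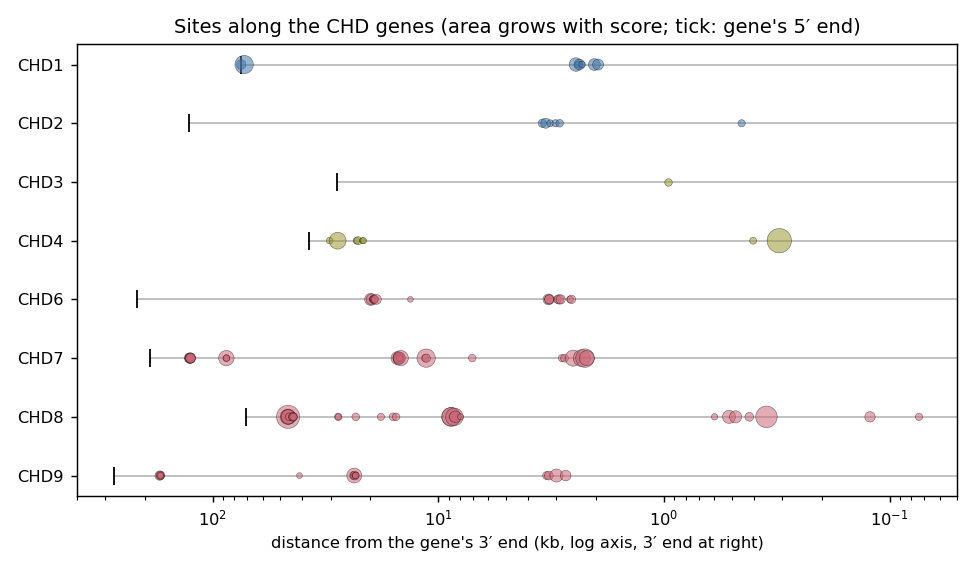
Sites along the 8 bound CHD genes, 1 row per gene, placed by distance from the gene's 3′ end (kb, log axis, 3′ end at right), with point area growing with the authors' score and a tick at the gene's 5′ end. In CHD1, CHD2, CHD6, CHD7 and CHD9 a group of sites lies 1.96 to 3.46 kb from the end, a range drawn around these groups. The last CHD8 group lies within 0.596 kb of the end.

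CHD1 binds methylated histone H3 through its chromodomains and travels with elongating RNA polymerase. Of its 8 sites on chromosome 5, minus strand, 6 lay within 497 nt, from 98855941 to 98856437. The other sites, at 98926435 and 98928654, lay at the opposite end of the gene, the nearer one about 70.0 kb away. The site at 98928654 was 0.353 kb from the gene's 5′ end, and the one at 98926435 had the gene's top score, 62.3. CHD1 was the only member with a site in the first 1 kb of its span. CHD2, its closest relative, had 6 sites on chromosome 15, plus strand, all within 3.005 kb, from 93024540 to 93027544. No CHD2 site lay in the 124 kb before them, and the top CHD2 score was 13.8, the lowest of the 7 genes with several sites.

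CHD4, the main NuRD ATPase of dividing cells, had 8 sites on chromosome 12, minus strand, that were more scattered than those of the other members. They formed 5 clusters of at most 2 sites, and the median gap between them was 1016 nt. The site at 6570390, 308 nt from the 3′ end, scored 114.5, the highest of the 113 CHD sites. A second high site, at 6597981, scored 51.2, and the other 6 scored between 0.371 and 6.58. CHD3, which can replace CHD4 in NuRD, had 1 site, at 7911797 on chromosome 17, with a score of 4.97. CHD5, whose expression is known mainly from brain and testis, had 0 positions on either strand in its 78.5 kb span, so its unknown strand in the gene table does not affect the count. CHD5 mRNA was not measured in the data used here.

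The share of sites close to the gene's 3′ end, set beside that of other genes, depended on the window, and no test was made. In the last 500 nt lay 8 of 113 CHD sites (7.08%, exact 95% binomial interval 3.11 to 13.5) and 6.18% of 31507 site-gene pairs in other genes spanning 10 kb or more. In the last 1 kb lay 11 CHD sites (9.73%, interval 4.96 to 16.8) and 13.0% of those pairs. In the last 2 kb lay 12 CHD sites (10.6%, interval 5.61 to 17.8), against 24.6% in other genes. Between 2 and 4 kb from the end the CHD share was 24.8% (28 sites, interval 17.1 to 33.8) and the share in other genes 17.8%. That window was added after the positions were seen, so its interval is not an independent check. The share in other genes lay inside the CHD interval for the last 500 nt, the last 1 kb and 2 to 4 kb. For the last 2 kb it lay above the interval. For the last 4 kb, also added after the positions were seen, the share in other genes (42.4%) lay inside the CHD interval (26.6 to 45.0). The 2 sets of genes were not matched for span. The median span was 101 kb in the bound CHD genes and 32.0 kb in all other bound genes. CHD8 supplied 7 of the 11 sites in the last 1 kb, CHD4 2, and CHD2 and CHD3 1 each. CHD1, CHD6, CHD7 and CHD9 had 0 there. In 5 genes a group of 4 to 8 sites, 29 sites in all, lay 1.96 to 3.46 kb from the 3′ end. These were CHD1 from 1.96 kb, CHD7 from 2.20 kb, CHD6 from 2.57 kb, CHD9 from 2.72 kb and CHD2 from 2.90 kb. That range was drawn around these groups after the positions were seen, and other genes were not examined for such groups. In the first 1 kb lay 1 CHD site (0.885%) and 3.33% of the pairs in other genes. The intervals cover counting error only, and neighbouring sites of a gene are not independent. Stop codons and untranslated regions were not located here.

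**Figure D3:**
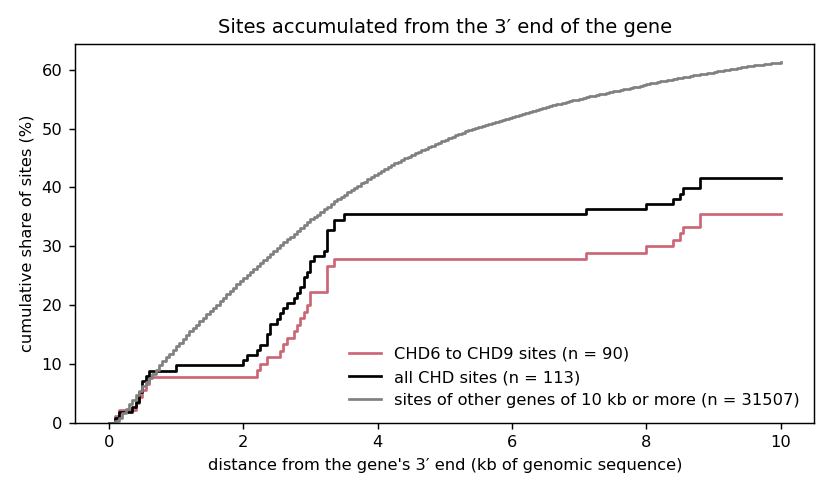
Cumulative share of sites (y axis, %) against distance from the gene's 3′ end (x axis, kb of genomic sequence) for the 90 sites of CHD6 to CHD9, all 113 CHD sites and 31507 site-gene pairs of other genes spanning 10 kb or more. The CHD curve is flat between 1 and about 2 kb and climbs from 10.6% at 2 kb to 35.4% at 4 kb, below the 42.4% of other genes.

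Scores of CHD sites had a median and quartiles close to those of the rest of the list. The authors' score has no stated scale and is used only to order and describe sites within this list. The median over CHD sites was 7.99 (quartiles 3.97 and 21.7), against 8.67 (quartiles 3.75 and 20.8) over other positions. Where the list gave a position on 2 rows, the higher score was kept, and whether such rows share a scale is not known. With the lower score the CHD median was 5.86, and the median of other positions was not computed that way. Of the 113 CHD sites, 55 (48.7%, interval 39.2 to 58.3) reached the list's median score. A score of 100 or more was found at 2 CHD sites (1.77%, interval 0.215 to 6.25), in CHD4 and CHD8, and at 3.24% of other positions. Scores under 1 were found at 9 CHD sites (7.96%) and 7.11% of other positions.

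By gene, the median score was highest in CHD1, at 17.3, followed by CHD7 at 12.9, CHD8 at 9.03, CHD6 at 7.99, CHD9 at 6.27, CHD2 at 4.64 and CHD4 at 2.74. CHD4 thus combined the lowest median of the genes with several sites with the family's top site. In each gene with several sites, scores overlapped those of every other such gene. The 17 CHD6 sites ranged from 0.0224 to 23.0 and the 29 CHD8 sites from 0.425 to 102.5.

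**Figure D4:**
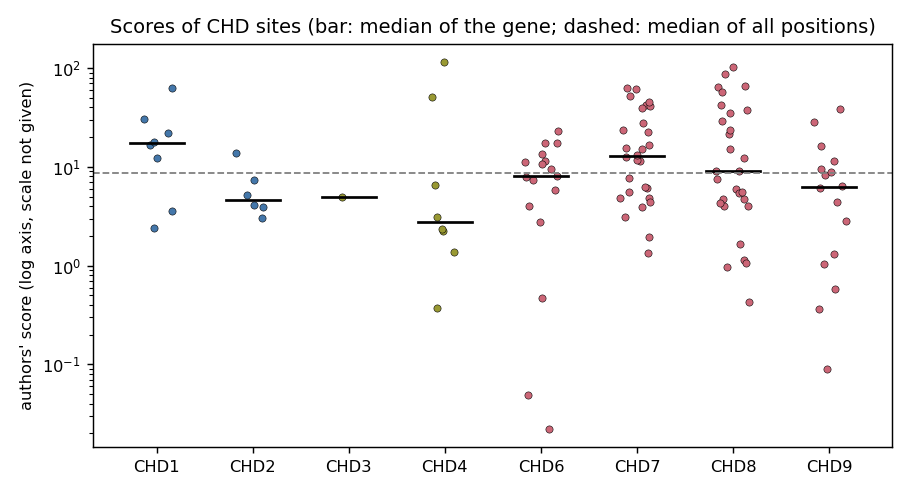
Authors' score of each site (y axis, log axis, scale not given) in the 8 bound CHD genes (x axis), with a bar at each gene's median and a dashed line at the median of all positions, 8.67. CHD1 and CHD7 have the highest medians, 17.3 and 12.9, and single CHD4 and CHD8 sites pass 100.

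The list gives some positions on 2 rows with different scores, and by row order it falls into a shorter part of 8935 rows and a longer part of 34243 rows. The sources used here do not say which libraries each part stands for. Of the CHD positions, 22 (19.5%, interval 12.6 to 27.98) were on 2 rows, against 14.8% of other positions. CHD8 had 8 of them, CHD7 6, CHD9 3, CHD1 2, and CHD2, CHD4 and CHD6 1 each. Both CHD1 sites at the 5′ end of the gene were on 2 rows, while its 6 sites near the 3′ end were on 1. In CHD8, 4 of the 6 middle-cluster sites and 4 of the 7 sites at the 3′ end were on 2 rows, and 0 of the 7 in the 5′ cluster.

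Whether scores of the longer and the shorter part share a scale is not known, so no fold is taken between them. The longer part had the higher number at 16 of the 22 positions (72.7%) and at 70.0% of other such positions. The CHD8 site at 21385550 scored 87.8 in the longer part and 5.47 in the shorter one, and the site at 21393962 scored 65.6 and 1.96. The order was the other way at the CHD7 site at 60781190, with 15.3 in the longer part and 41.8 in the shorter. Only the shorter part listed 6 CHD positions (5.31%), 3 in CHD8, 2 in CHD7 and 1 in CHD6, against 8.97% of other positions.

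The 9 CHD spans held 0 positions on the opposite strand, although the strand of CHD6 and CHD7 was itself taken from the majority of these positions. Of the sites counted here, 2 CHD4 sites overlap CHD4-AS1, 7 CHD8 sites overlap the noncoding gene LOC107984643, and 1 CHD1 site overlaps CHD1-DT. Each of these noncoding genes runs on the strand opposite to the sites. No CHD site lay in another protein-coding gene, in a hosted small RNA gene or in the RefSeq promoter windows of the 6 CHD genes that have one.

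The partners of CHD proteins were bound unevenly. Over all protein-coding genes 39.1% had a site, and expression levels, which were not used here, may differ between the lists and that background. NuRD without its CHD subunits had a site in 9 of 12 genes, with a median of 1 site. MBD3, which bridges the complex, had 14 sites, GATAD2A 10, the histone-binding RBBP4 9, and HDAC1 and MTA2 3 each, while CDK2AP1, MBD2 and MTA3 had 0. ADNP, the zinc finger protein that joins CHD4 and HP1 proteins in the ChAHP complex, had 22 sites, and the HP1 genes CBX1 and CBX3 had 2 and 1. Of CTCF and the WRAD proteins, which associate with CHD8, 4 of 5 were bound, with CTCF at 13 sites, WDR5 at 5, RBBP5 at 4 and ASH2L at 1. All 7 elongation factor genes on the CHD1 list were bound, with CTR9 at 7, SSRP1 at 6, SUPT16H at 5 and PAF1 at 4.

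Other SNF2-type remodelling ATPases had fewer sites than CHD6 to CHD9, with 1 exception. Of 13 such genes, 10 were bound, beside 39.1% of all protein-coding genes. The median was 2 sites over all 13, against 8 over the 9 CHD genes and 0 over other protein-coding genes. SRCAP, which deposits the histone variant H2A.Z, had 19 sites, more than CHD6 or CHD9. ATRX, EP400 and ERCC6 had 11 each. Per kb of span the order differed: SRCAP had 0.450 sites, ERCC6 0.105, EP400 0.0843 and ATRX 0.0391. CHD8 had 0.409, CHD7 0.148, CHD6 0.0786 and CHD9 0.0587. The median density was 0.0375 per kb in the 10 bound genes of this list and 0.0926 in the 8 bound CHD genes. SMARCA4, an ATPase of SWI/SNF, had 1, and SMARCA2, BTAF1 and CHD1L had 0. CHD1L shares the CHD name but lacks chromodomains and is not counted in the family.

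Likeness to CHD8 was measured over 993 genes with 10 or more sites, by site number, sites per kb and the share of sites in the last 10% of the span. The nearest genes outside the lists were KMT2A, a histone methyltransferase, LMTK2, a membrane kinase, and MAP1B, a microtubule-associated protein. KMT2A had 30 sites, 0.332 per kb and 23.3% of sites in that last stretch, against 29, 0.409 and 24.1% for CHD8. The distance was 0.206 SD units for KMT2A, 0.327 for LMTK2 and 0.458 for MAP1B. CHD7 lay farther off at 1.45, with 64.3% of its sites there, as did CHD9 at 2.80 (68.8%) and CHD6 at 3.10 (100%).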

How the data were processed

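YTHDF2 iCLIP2 libraries of HEK293T cells (4 given STM2457, 4 given DMSO, grouped by the treatment in the labels) underlie 1 deposited list. Whether replicates are separate cultures is not labelled. Each row has a 1 nt position and a score that the authors deposited, and the sources used here give no scale, caller, filter or way of pooling for it. GRCh38.p12, bedtools 2.27.1, UMI-tools 1.0.0, STAR 2.7.3a and FastQC 0.11.8 are named, without roles, per the submitters' processing notes. The list has 0 columns of single samples, so no test, replicate error or depth could be had.

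The 43178 rows were joined to 37613 positions, keeping the higher score. Positions, counted from 1, were placed in spans of the RefSeq GRCh38.p14 gene table, whose coordinates are not printed. Patches leave the main chromosomes unchanged. Gene strand came from the RefSeq promoter table (15813 genes) or from the majority of positions lying in that gene alone (1213 genes, including CHD6 and CHD7). Of 2967 genes of unknown strand, 127 contained positions, which were not counted for them. A position in several genes counted for each, and 99.2% of positions were placed. Symbols were matched for all 9 members and all listed partners.

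The members and lists were chosen with earlier results of these data known. Named were all CHD genes, up to 4 genes with the most sites of each list, genes of a list with few or no sites after their values were seen, and the 3 genes most like CHD8. Intervals are exact binomial (Clopper-Pearson). Counting was tested on simulated sites placed on the gene's strand in genes that do not overlap. Positions in several genes or on the opposite strand were not covered by it. Coding length, transcript regions and DRACH motifs were not analysed here. Python 3.11.15, pandas 2.3.3 and scipy 1.17.1 were used.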

Additional observations from a re-analysis of the deposited data

How the results depend on the processing

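The count of 113 CHD sites was between 93 and 113 with sites merged within 50 or 10 nt, with positions in other protein-coding genes left out, with the lower of 2 scores, in the longer part alone, and, added after seeing the data, with scores of 1 or more. It was 55 with positions at or above the median score and 28 in the shorter part, which both hold fewer positions by construction. The median per CHD gene was 8 sites, 6 with positions at or above the median score and 2 in the shorter part. With positions at or above the median score, CHD6 had 8 sites, CHD9 6, CHD4 2, CHD2 1 and CHD3 0. The median score was 7.99, against 5.86 with the lower score, 22.0 with positions at or above the median score and 5.18 in the shorter part. The density was 0.0926 sites per kb, against 0.0536 with positions at or above the median score. The share of positions on 2 rows was then 32.7%, and within a single part it has no value. The share with a neighbour within 50 nt was 32.7% (29.7% of other positions), 7.14% in the shorter part and, by construction, 0% after merging. The share at the 3′ end was 9.73% in the last 1 kb and 35.4% in the last 4 kb, a window added afterwards. The densest 10 kb of each gene held 53.1% of CHD sites and the densest 5 kb 46.9%. Clusters of 5 or more sites numbered 11 at gaps of 1000 and 2000 nt and 10 at 500 nt. Coding length, transcript region and DRACH motif alternatives were not run, since they need tables not used here. No paired analysis was possible because the list has no value per library. Read depth behind a site is unknown.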
